A study of Mus musculus with 28 samples.

Results

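The nuclear-encoded genes of the mitochondrial respiratory chain were followed in mouse liver across adult life on an intermittent diet. Members were the genes whose symbol begins with Nduf, Uqcr, Sdh, Atp5 or Cox4 to Cox8, pseudogenes left out, and which the array measured with a probe set assigned to that gene alone. This rule found 92 genes of the 18820 genes with such a probe set. Of these, 72 encode subunits found in the liver enzyme: 34 of complex I, 4 of complex II, 7 of complex III, 10 of complex IV and 17 of complex V. Another 12 are assembly or supercomplex factors, and 8 are isoforms that belong mainly to other tissues. Ndufa4, named after complex I, was counted with complex IV, where the protein is now placed. Subunits without a probe set under the rule, and the mitochondrially encoded subunits, are not analysed here.

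The respiratory chain sits in the inner mitochondrial membrane. Complex I (NADH dehydrogenase, the Nduf genes) and complex II (succinate dehydrogenase, the Sdh genes) pass electrons to ubiquinone, complex III (the Uqcr genes) passes them to cytochrome c, and complex IV (cytochrome c oxidase, the Cox genes) passes them to oxygen. Complex V, the ATP synthase of the Atp5 genes, uses the proton gradient that results. Hepatocytes are rich in mitochondria and use the chain to burn fatty acids and to power glucose synthesis and urea formation. Most subunits come from the nucleus, so their mRNAs have to be supplied in step with the few that mitochondrial DNA encodes.

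Liver RNA of 28 male C57BL/6J mice was measured on whole-transcript arrays, one array per mouse. The lifelong groups, 3 in number, had the intermittent diet from 9 weeks of age and differed in age at sampling: 6 livers came from mice of 6 months, 7 from mice of 12 months and 7 from mice of 24 months. The switched group (n = 8) ate the moderate-fat food without limit until 12 months, then had the intermittent diet and was sampled at 24 months. The intermittent diet alternated a week of moderate-fat food (25% of energy from fat) without limit with a week at 60% of the energy that control mice ate. Sampling followed a fast of 4 hours, an oral gavage of the vehicle carboxymethyl cellulose (0.5%) and a second fast of 6 hours. The week of the diet cycle at sampling is not given in the labels. Values are log2 expression, so a difference of 1 is a doubling; levels of different genes are not compared, because each probe set has its own brightness.

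Hepatocyte mRNAs were present in every liver: albumin (Alb) lay between 13.48 and 13.72 and transthyretin (Ttr) between 13.16 and 13.36, against array medians of 5.23 to 5.31. Whole liver holds several cell types, and fewer cells of a type cannot be told apart from less RNA per cell. Over the 24-month and 6-month lifelong livers, the median difference of 10 Kupffer cell and macrophage markers was 0.56 (2 passed the test, both higher) and that of 7 B and plasma cell markers 0.84 (5 passed, all higher). The 11 hepatocyte markers had a median of -0.08, with 1 lower. Of all genes, 6.23% passed in this comparison (3.01% higher, 3.22% lower). The part of these marker differences in the results below was not tested.

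Many promoters of the members carry at least 1 of 5 short motifs. The motifs are shown here because the nuclear factors that read them are known to tie the complexes together. RefSeq windows of 300 bases (250 before to 50 after the gene's start, build GRCm38.p6) were at hand for 77 of the 92 members. At least 1 of 5 motifs, searched on both strands, was present in 46 of the 77 (59.7%), against 18.3% of the 27025 genes with a window. The NRF1 motif GCGCANGCG was in 24 members (31.2%, against 7.03% of all genes). The motif of ETS factors such as GABP, CCGGAAG, was in 21 (27.3% against 9.93%), and the YY1 motif AAGATGGCG in 7 (9.09% against 1.64%). TGACGTCA, the cyclic AMP response element, was in 4 (5.19% against 2.03%) and the ERRA motif TCAAGGTCA in 2 (2.6% against 0.466%). These are matches of letters, not shown binding sites. The comparison was with all genes that have a window, not with genes matched for expression or base composition. Whether the higher shares are particular to the members was not tested.

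Windows are printed for 6 of the 8 members that passed the test over the 4 groups, described further on, with motif matches in capitals and all other bases in lower case, 5′ to 3′ on the gene's strand. The complex I subunits among them, Ndufs4 (chr13:114388045-114388344, minus strand), Ndufs6 (chr13:73328433-73328732, minus) and Ndufa9 (chr6:126849095-126849394, minus), held the YY1 letters close to the end of the window. The YY1 letters include ATG, and Ndufs6 held an NRF1 match as well.
Ndufs4: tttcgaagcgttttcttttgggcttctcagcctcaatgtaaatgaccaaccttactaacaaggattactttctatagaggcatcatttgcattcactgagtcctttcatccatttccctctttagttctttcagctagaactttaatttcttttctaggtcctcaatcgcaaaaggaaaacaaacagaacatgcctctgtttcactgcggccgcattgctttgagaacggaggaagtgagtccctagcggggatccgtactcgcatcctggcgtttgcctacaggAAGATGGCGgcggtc
Ndufs6: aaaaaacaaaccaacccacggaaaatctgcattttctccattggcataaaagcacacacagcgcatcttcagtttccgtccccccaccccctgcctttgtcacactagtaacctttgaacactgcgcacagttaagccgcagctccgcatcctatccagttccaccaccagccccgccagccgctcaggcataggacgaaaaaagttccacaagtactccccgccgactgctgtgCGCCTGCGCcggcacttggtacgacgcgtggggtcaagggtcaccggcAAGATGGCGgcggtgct
Ndufa9: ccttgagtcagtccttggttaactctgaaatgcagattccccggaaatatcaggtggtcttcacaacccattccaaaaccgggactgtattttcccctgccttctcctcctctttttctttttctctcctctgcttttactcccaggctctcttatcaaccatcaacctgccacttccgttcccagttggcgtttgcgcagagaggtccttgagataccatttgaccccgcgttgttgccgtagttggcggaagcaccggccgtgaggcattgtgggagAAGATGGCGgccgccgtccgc
The complex V gene Atp5l (chr9:44920693-44920992, minus strand) held 1 NRF1 and 2 ETS matches.
Atp5l: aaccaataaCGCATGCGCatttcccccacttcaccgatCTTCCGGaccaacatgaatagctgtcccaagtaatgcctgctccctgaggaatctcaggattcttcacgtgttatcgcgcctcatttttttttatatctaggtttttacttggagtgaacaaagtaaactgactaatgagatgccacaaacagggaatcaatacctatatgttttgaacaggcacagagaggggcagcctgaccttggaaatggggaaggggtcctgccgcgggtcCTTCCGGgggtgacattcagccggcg
Of the assembly factors, Ndufaf4 (chr4:24897833-24898132, plus strand) held 2 overlapping NRF1 matches, on opposite strands, and Sdhaf1 (chr7:30322326-30322625, minus strand) 1 ETS match.
Ndufaf4: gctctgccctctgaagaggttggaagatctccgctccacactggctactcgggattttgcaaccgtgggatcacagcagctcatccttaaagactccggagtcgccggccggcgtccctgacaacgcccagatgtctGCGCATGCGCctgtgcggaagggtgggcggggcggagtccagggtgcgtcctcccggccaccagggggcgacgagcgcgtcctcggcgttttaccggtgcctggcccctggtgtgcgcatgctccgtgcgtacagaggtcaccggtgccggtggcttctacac
Sdhaf1: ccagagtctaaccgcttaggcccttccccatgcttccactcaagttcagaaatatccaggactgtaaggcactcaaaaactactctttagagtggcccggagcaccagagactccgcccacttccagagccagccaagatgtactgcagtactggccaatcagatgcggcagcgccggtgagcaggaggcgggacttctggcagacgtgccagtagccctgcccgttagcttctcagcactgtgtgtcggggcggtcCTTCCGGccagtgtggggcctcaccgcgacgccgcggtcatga
The windows of Cox7a2l and Cox6b2 held none of the 5 motifs, which says only that these letters are not in those windows.

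Between 6 and 24 months of age, the subunits of the chain had small median differences and no calls, though a few single subunits lay close to the threshold. None of the 72 subunits passed the test in any of the 4 comparisons between groups (limma, Benjamini-Hochberg adjusted p under 0.05). An unadjusted limma p under 0.05 was found for 3, 12, 6 and 5 of them. These counts are for 12 with 6, 24 with 6, 24 with 12 months and switched with lifelong, in that order. The shares were 4.17%, 16.7%, 8.33% and 6.94% of the subunits, against 15.1%, 22.2%, 12.3% and 7.87% of all genes. Of all 18820 genes, 6.23% passed between 24 and 6 months, 0.829% between 12 and 6 months, 0.0266% between 24 and 12 months and 0.0266% between the switched and lifelong livers. The comparisons of 12 and of 24 with 6 months share the 6-month livers, and those of 24 with 12 months and of switched with lifelong share the 24-month livers. The absence of calls among subunits at 24 against 6 months depended on the settings. Ndufs4 passed in 6 alternatives (-0.51 to -0.61, limma adjusted p 0.0237 to 0.0493), among them the fits without 6-month liver 5 and without 24-month liver 4. Atp5l passed in 4 (adjusted p 0.0091 to 0.0475) and Atp5o, the stalk subunit of ATP synthase that confers oligomycin sensitivity, in 2 (-0.18 in both, adjusted p 0.0454 and 0.047); both did so without 24-month liver 7.

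The medians by complex were small in each comparison. From 6 to 24 months they were -0.04 for complex I, 0.03 for complex II and -0.02 for each of complexes III, IV and V, beside -0.00 for all genes. From 6 to 12 months they ran from -0.05 (complex III) to 0.03 (complex IV), and from 12 to 24 months from -0.06 (complexes III and IV) to 0.00 (complex II). Single subunits spread more widely than the medians: between 24 and 6 months the lowest was at -0.52 (Ndufs4) and the highest at 0.36 (Sdhb), with 28 of 72 above 0. All 7 complex III subunits lay below 0 in that comparison by their brightest probe sets, at -0.19 to -0.00. The dimmer probe sets of Uqcr11 and Uqcrh lay above 0, at 0.02 and 0.04. Within the batches G150, G151 and G152 the complex III median was -0.06, 0.08 and -0.00. For 67 of the 72 subunits the 95% interval of the 24 minus 6 month difference lay within 0.5 of 0 on either side; the other 5 were Ndufs4, Ndufs6, Sdhb, Uqcr11 and Atp5e. The median over the subunits within the 3 array batches was -0.06, 0.06 and 0.00.

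**Figure D1:**
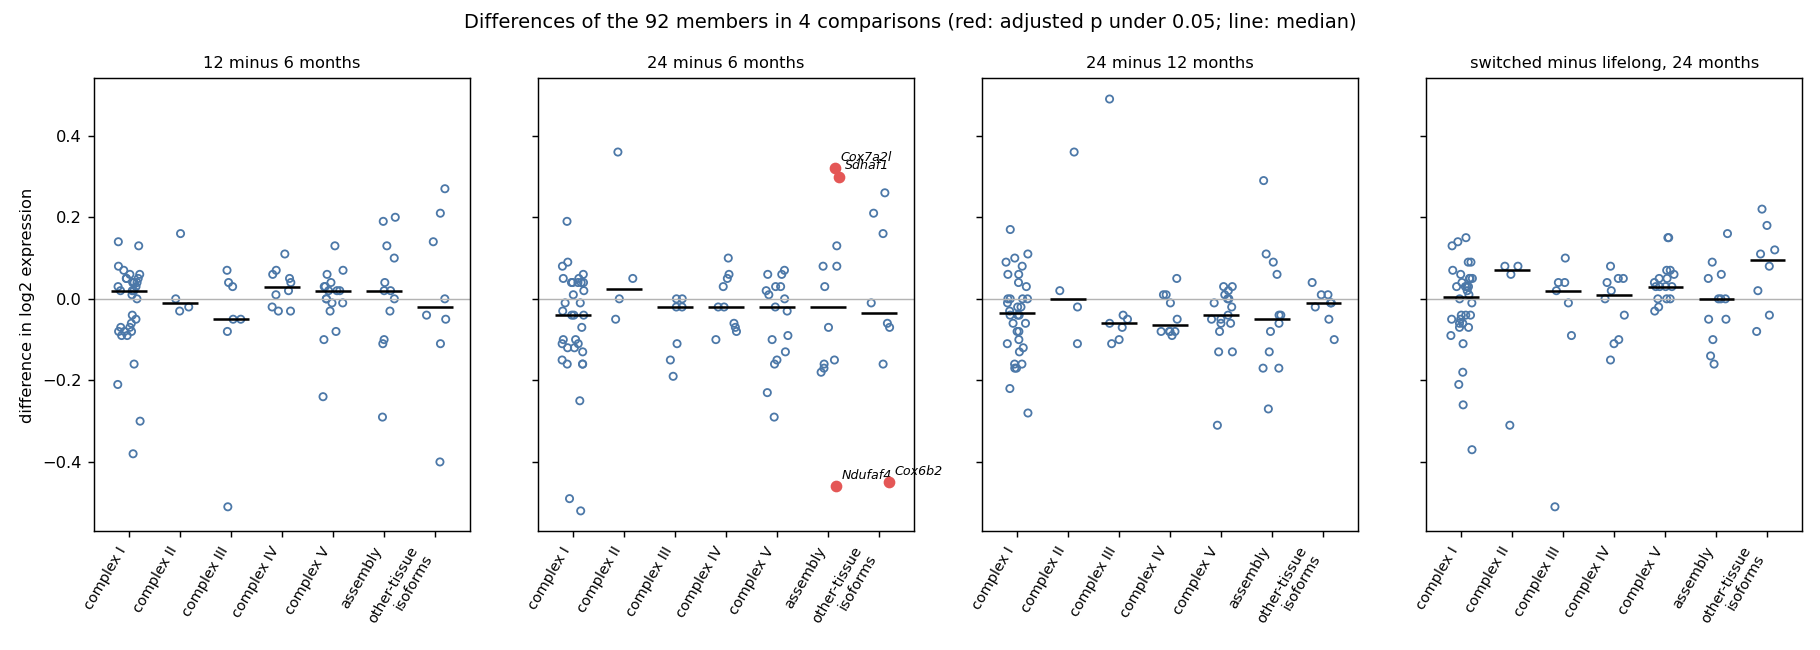
Difference in log2 expression (vertical axis) of each of the 92 members, 1 circle per gene, in the 4 comparisons (panels), grouped on the horizontal axis by complex and class; filled red circles passed the test at an adjusted p under 0.05 and black lines are medians. The subunit medians lie between -0.06 and 0.07, and the 4 filled circles, Ndufaf4, Sdhaf1, Cox7a2l and Cox6b2, are all in the 24 minus 6 month panel outside the subunit columns.

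What did pass between 6 and 24 months were 3 helper proteins and 1 isoform of another tissue: Ndufaf4 and Cox6b2 fell, and Sdhaf1 and Cox7a2l rose. That is 4 of 92 members, with 19 at an unadjusted p under 0.05 (20.7%, against 22.2% of all genes), so the members' share of calls was below the background of 6.23% (higher 3.01%, lower 3.22%). Of the 12 assembly factors, 3 passed. The members' count is no more than all genes gave, and each of the 4 is described on its own values.

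Ndufaf4 encodes an assembly factor that complex I needs during its construction. The 6-month livers had 7.60, 7.99, 8.12, 8.05, 8.01 and 8.36, and the 24-month livers 7.62, 7.86, 7.60, 7.66, 7.23, 7.36 and 7.82. Apart from the first, the 6-month livers were above all 7 old ones. The means were 8.02 ± 0.25 (SD, n = 6) and 7.59 ± 0.23 (n = 7), a fall of -0.46 (SE 0.10, limma adjusted p = 0.00893, 95% interval -0.66 to -0.25). It lay at -0.47, -0.23 and -0.62 within the 3 batches. The 12-month livers were between, at 7.73 ± 0.11 (n = 7), and the switched livers at 7.5 ± 0.18 (n = 8). All 13 fits that left out 1 liver kept the call.

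Sdhaf1 encodes a small factor needed to build succinate dehydrogenase, where it helps the iron-sulfur subunit Sdhb to mature. The 6-month livers lay close together at 6.87, 6.72, 6.70, 6.72, 6.71 and 6.84. The 24-month livers had 7.37, 7.26, 7.13, 6.95, 6.86, 7.07 and 6.89, above the 6-month mean in 7 of 7 with a small overlap of the groups. The rise was 0.30 (SE 0.07, limma adjusted p = 0.0102), from 6.76 ± 0.08 (n = 6) to 7.08 ± 0.19 (n = 7). The 12-month livers were at 6.95 ± 0.09 and the switched livers at 7.14 ± 0.11. A dimmer second probe set for the gene gave -0.06, and with the mean of both the call was lost (0.12, adjusted p = 0.321).

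Cox7a2l, also called SCAFI, joins complexes III and IV into supercomplexes, and C57BL/6J mice are known to carry a shortened form of the protein. The 6-month livers had 8.44, 8.28, 8.32, 8.29, 8.14 and 8.17, and the 24-month livers 8.56, 8.57, 8.61, 8.53, 8.53, 8.68 and 8.65. Every old liver was above every young one, as was true of 2.14% of all genes in either direction. The rise was 0.32 (SE 0.08, limma adjusted p = 0.0299), and 0.29, 0.36 and 0.39 within batches. The 12-month livers were at 8.32 ± 0.23 and the switched livers at 8.45 ± 0.19. A second probe set gave 0.10 (adjusted p = 0.359), and leaving out either of 2 old livers (3 or 6) or any of 4 young ones (2, 4, 5 or 6) ended the call, with an adjusted p of up to 0.093.

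Cox6b2, the testis form of a complex IV subunit, was the only one of the 8 isoforms of other tissues to pass. It lay at 4.78, 5.37, 5.20, 5.52, 4.85 and 4.84 at 6 months and at 4.60, 4.48, 4.75, 4.41, 4.79, 4.76 and 4.64 at 24 months. Livers 2, 3 and 4 of the 6-month group were above all others, and most values lay below the array medians, so the signal is dim. The difference was -0.45 (SE 0.11, limma adjusted p = 0.0217), and it lost its call without 6-month liver 2, 3 or 4 (adjusted p up to 0.0695). The liver form Cox6b1 differed by 0.10 (adjusted p = 0.757).

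With only the 6- and 24-month livers in the fit, Sdhaf1 (adjusted p = 0.0519) and Cox6b2 (0.0794) no longer passed, and in the largest array batch alone none of the 4 did.

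In a test over all 4 groups at once, 8 of the 92 members passed, against 10.6% of all genes, and 4 of them were subunits: Ndufs4, Ndufs6 and Ndufa9 of complex I and Atp5l of complex V. Their adjusted p, from the limma F test, was 0.0392, 0.0297, 0.0336 and 0.0294. In the test of 24 against 6 months the same subunits had -0.52, -0.49, -0.25 and -0.23, with limma adjusted p of 0.0535, 0.0691, 0.0811 and 0.0643.

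**Figure D2:**
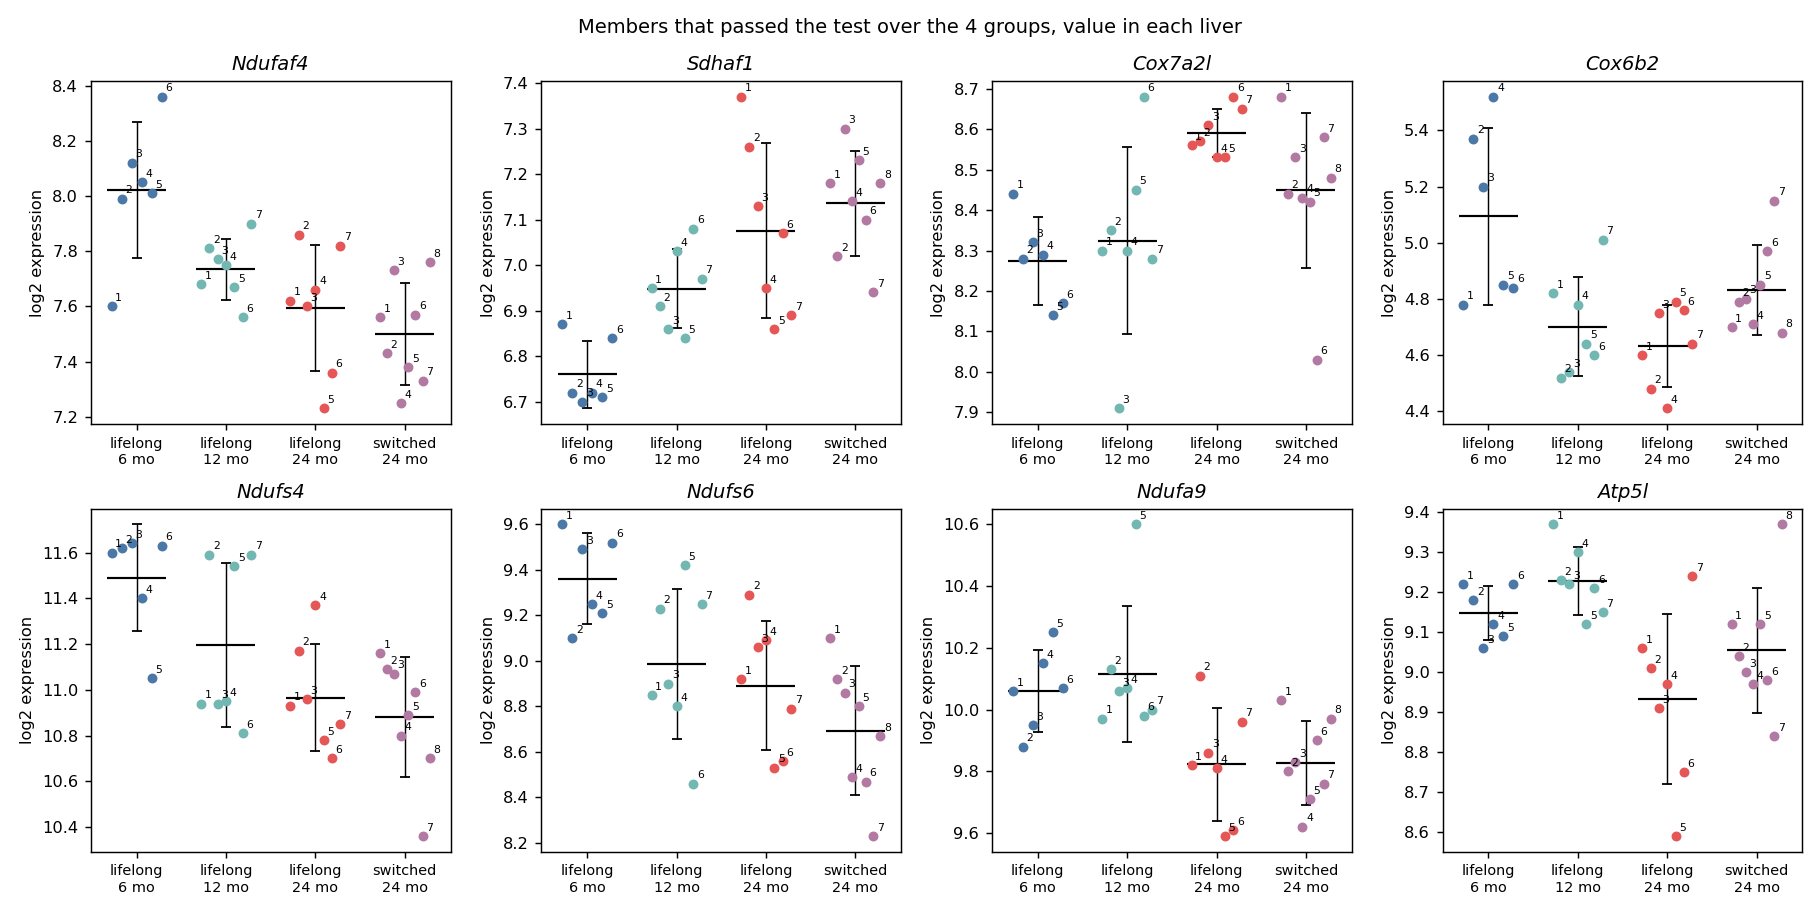
Log2 expression (vertical axis) of the 8 members that passed the test over the 4 groups, 1 point per liver with its replicate number, by group (horizontal axis); lines are group means and bars are the SD. Ndufaf4, Ndufs4 and Ndufs6 are highest at 6 months (means 8.02, 11.49 and 9.36), Sdhaf1 is lowest there (6.76), and Cox7a2l is highest in the lifelong 24-month livers (8.59).

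Ndufs4, an accessory subunit of the NADH-binding arm whose loss causes Leigh syndrome, had 11.60, 11.62, 11.64, 11.40, 11.05 and 11.63 at 6 months. At 12 months the livers fell into a higher and a lower set, with 11.59, 11.54 and 11.59 in livers 2, 5 and 7 and 10.94, 10.94, 10.95 and 10.81 in livers 1, 3, 4 and 6. At 24 months they had 10.93, 11.17, 10.96, 11.37, 10.78, 10.70 and 10.85, and the 8 switched livers lay between 10.36 and 11.16. All 7 of the 24-month livers lay below the 6-month mean, and the 24 minus 6 month difference was close to the same in each batch (-0.52, -0.55 and -0.57).

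Ndufs6, a zinc-binding accessory subunit of the same arm, ran from 9.10 to 9.60 at 6 months and from 8.53 to 9.29 at 24 months. Its highest 12-month values were in the same livers as for Ndufs4: 9.23, 9.42 and 9.25 in livers 2, 5 and 7, against 8.46 to 8.90 in the other four. The switched livers had the lowest mean, 8.69 ± 0.28 (n = 8), against 9.36 ± 0.20 at 6 months. Ndufa9, which lies where the 2 arms of complex I meet, was at 10.06 ± 0.13 at 6 months, 10.12 ± 0.22 at 12, 9.82 ± 0.18 at 24 months and 9.83 ± 0.14 in the switched livers. With switched livers 7 and 8 both left out, which stand apart in other members, these 3 subunits missed the threshold over the 4 groups (adjusted p = 0.0688, 0.0673 and 0.052).

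Atp5l, subunit g of the membrane part of ATP synthase, was 9.15 ± 0.07 at 6 months (n = 6) and 9.23 ± 0.08 at 12 months (n = 7). The 24-month livers had 9.06, 9.01, 8.91, 8.97, 8.59, 8.75 and 9.24, so 6 of the 7 lay below the 6-month mean and livers 5 and 6 were lowest. All 6 of its probe sets agreed in sign between 24 and 6 months, at -0.25 to -0.20, and 1 of them passed on its own (-0.25, limma adjusted p = 0.0318). Between 24 and 12 months the difference was -0.31 (limma adjusted p = 0.10), and without the 24-month liver 7 it passed (adjusted p = 0.0194). Within batches the 24 minus 6 month difference was -0.33, 0.12 and -0.18, with a single liver of each age in the batch of the positive value.

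The core subunits of complexes I and III, the catalytic and c-ring subunits of complex V and the nuclear subunits nearest the core of complex IV did not pass in any of the 4 comparisons. In complex I, the NADH-binding Ndufv1 differed between 24 and 6 months by -0.12 (limma adjusted p = 0.189), its iron-sulfur partner Ndufv2 by -0.12 (0.172) and Ndufs1, the largest subunit, by -0.16 (0.289). Without 24-month liver 7, Ndufv1 passed the test over the 4 groups (limma adjusted p = 0.0393). The core subunit Ndufs3 was at 0.05, and the iron-sulfur subunits Ndufs7 and Ndufs8, which lead electrons towards ubiquinone, were at 0.04 and 0.04. In complex III the Rieske iron-sulfur protein Uqcrfs1 was at -0.15 (0.258) and the core protein Uqcrc1 at -0.00. The catalytic subunits of complex IV are mitochondrially encoded and not analysed here; Cox4i1, Cox5a and Cox5b, nuclear subunits around that core, were at 0.06, -0.08 and 0.03. The alpha and beta subunits that make ATP, Atp5a1 and Atp5b, were at 0.07 and -0.02, and the 3 genes of the proton-carrying c ring, Atp5g1, Atp5g2 and Atp5g3, at 0.06, 0.03 and -0.10.

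Complex II, which also serves the citric acid cycle, had the largest positive difference of any subunit between 24 and 6 months. Sdhb, its iron-sulfur subunit, was at 10.79, 10.37, 10.42, 10.49, 10.52 and 10.72 at 6 months and at 10.99, 10.94, 10.84, 11.04, 10.79, 10.65 and 11.14 at 24 months. All 7 old livers were above the 6-month mean, by 0.36 on average (SE 0.14), but the test did not pass (limma adjusted p = 0.124). The flavoprotein Sdha differed by 0.05 and the membrane anchors Sdhc and Sdhd by -0.05 and 0.00. Between 12 and 6 months the groups did not overlap for Sdha, as was true of 0.994% of all genes in either direction, at 11.33 to 11.54 against 11.21 to 11.32. The difference was 0.16 (SE 0.05, limma adjusted p = 0.184).

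The other isoforms gave no call. Cox7a1, the heart and muscle form, differed by 0.26 (adjusted p = 0.395) and Cox8b, its counterpart in another subunit, by 0.21 (0.261). Cox4i2, the lung form, was at 0.16, Ndufa4l2 at -0.16 and the muscle form Cox6a2 at -0.07. The signals of Cox8b, Cox4i2 and Ndufa4l2 are dim. Their means at 6 and 24 months were 4.39 to 4.82, below the array medians of 5.23 to 5.31. The 10 skeletal muscle markers had a median difference of 0.01 and none passed. The matching liver forms Cox7a2, Cox8a, Cox4i1, Ndufa4 and Cox6a1 were at -0.02, -0.07, 0.06, -0.10 and 0.05.

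Switching to the intermittent diet at 12 months, after moderate-fat food, left no member that passed against lifelong intermittent feeding at 24 months, with 6 of 92 at an unadjusted p under 0.05 (6.52%, against 7.87% of all genes). Medians were 0.01, 0.07, 0.02, 0.01 and 0.03 for complexes I to V. For 68 of 72 subunits the 95% interval of the difference lay within 0.5 of 0. The exceptions, Ndufa11, Ndufb2, Sdhb and Uqcr11, were each low in the same livers. Uqcr11, a small subunit of complex III, had 11.62, 11.40, 11.39, 11.11, 11.33 and 11.42 in switched livers 1 to 6 and 8.89 and 9.74 in livers 7 and 8. Ndufa11, a membrane-arm subunit of complex I named here after its values were seen, had 10.22 to 10.52 in livers 1 to 6 and 8.95 and 9.29 in livers 7 and 8. Sdhb was at 9.92 and 10.15 there, against 10.53 to 10.95.

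The differences of these subunits rested on those 2 livers. The switched minus lifelong difference of Uqcr11 was -0.51 (limma adjusted p = 0.748) with all livers and 0.03 without both, that of Ndufa11 went from -0.37 to -0.02, that of Sdhb from -0.31 to -0.09 and that of Ndufb2 from -0.21 to 0.13. No member passed between the switched and lifelong livers with or without them. Over the 4 groups, Sdhb passed without them (limma adjusted p = 0.0202) and not with all livers (0.168). Liver 7 was low across the chain, with 8 of 72 subunits above their mean over all livers, while liver 8 had 45 of 72 above and was low in a few. Uqcr11 also varied at 12 months, at 11.27, 11.49 and 11.49 in livers 1, 2 and 7 and at 10.32 to 10.71 in the others, and had the largest spread of any member (pooled SD 0.61, against a median of 0.13 over the subunits and 0.16 over all genes).

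Across livers, the subunits of all 5 complexes were often high or low together, and the old livers' scores were spread more widely than the young ones'. A liver's score is the mean over the 72 subunits of the deviation from the mean of all 28 livers, without a batch term. It had an SD of 0.05 at 6 months (lowest -0.02, highest 0.10) and 0.05 at 12 months, and of 0.11 at 24 months (-0.16 to 0.11) and 0.14 in the switched group (-0.33 to 0.09). This difference in spread is a description and was not tested. The group means of the score were 0.03, 0.02, -0.01 and -0.03.

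**Figure D3:**
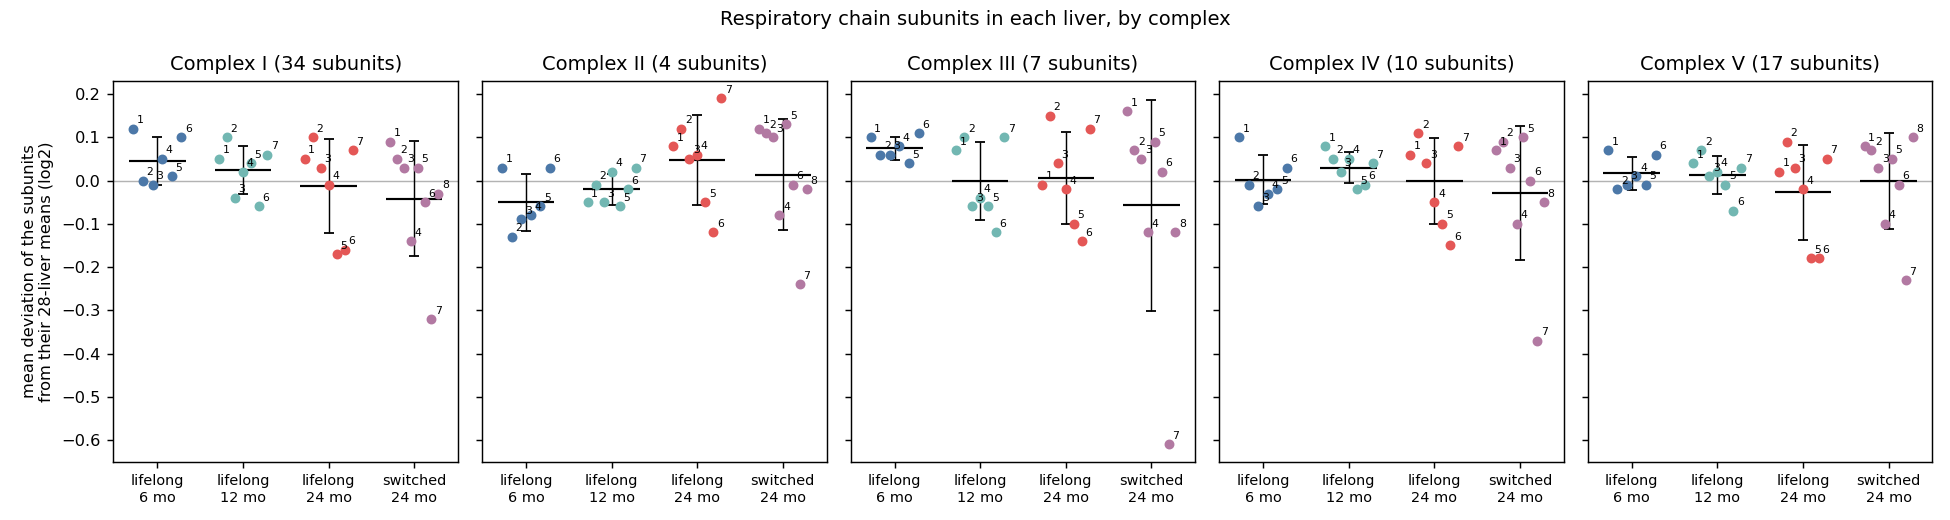
Mean deviation of the subunits of a complex from their 28-liver means (vertical axis, log2) in each liver (point, with its replicate number), by group (horizontal axis) and complex (panel); lines are group means and bars the SD. Livers 5 and 6 of the lifelong 24-month group and livers 4 and 7 of the switched group are below 0 in each of the 5 panels, down to -0.61 for complex III in switched liver 7.

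In most livers the subunits split on either side of their means: 22 to 61 of 72 were above at 6 months and 27 to 55 at 12 months. At 24 months, livers 5 and 6 had 11 and 6 of 72 above, while livers 2 and 7 had 63 and 60. Among switched livers, 4 and 7 had 6 and 8 above, and the rest had 28 to 56. All of these low livers were in array batch G150, while 24-month livers 2 and 7 were in G152 and G151. G150 also held 24-month livers 3 and 4, with 46 and 30 above. Switched livers 2, 3, 5 and 6 of that batch had 51, 52, 55 and 28. The part of the batch in these counts was not tested. In these low livers 46.8% to 48.6% of all genes were above their own means, against 45.4% to 52.7% over all arrays. Some other mitochondrial lists were below their means in these livers too. In 24-month livers 5 and 6 and switched livers 4 and 7, the 74 mitochondrial ribosomal protein genes had mean deviations of -0.16, -0.09, -0.06 and -0.22, with 10, 17, 27 and 8 above. The citric acid cycle genes were at -0.14, -0.14, -0.10 and -0.17 and the electron carriers at -0.14, -0.07, -0.13 and -0.22. Carrier and uncoupling genes were at -0.05, 0.00, 0.00 and 0.04, and fatty acid oxidation genes at -0.12, 0.09, -0.22 and 0.05. The lowest scores, -0.33 in switched liver 7 and -0.16 and -0.15 in 24-month livers 6 and 5, were low in each complex: switched liver 7 had -0.32, -0.24, -0.61, -0.37 and -0.23 for complexes I to V, and 24-month liver 6 had -0.16, -0.12, -0.14, -0.15 and -0.18.

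**Figure D4:**
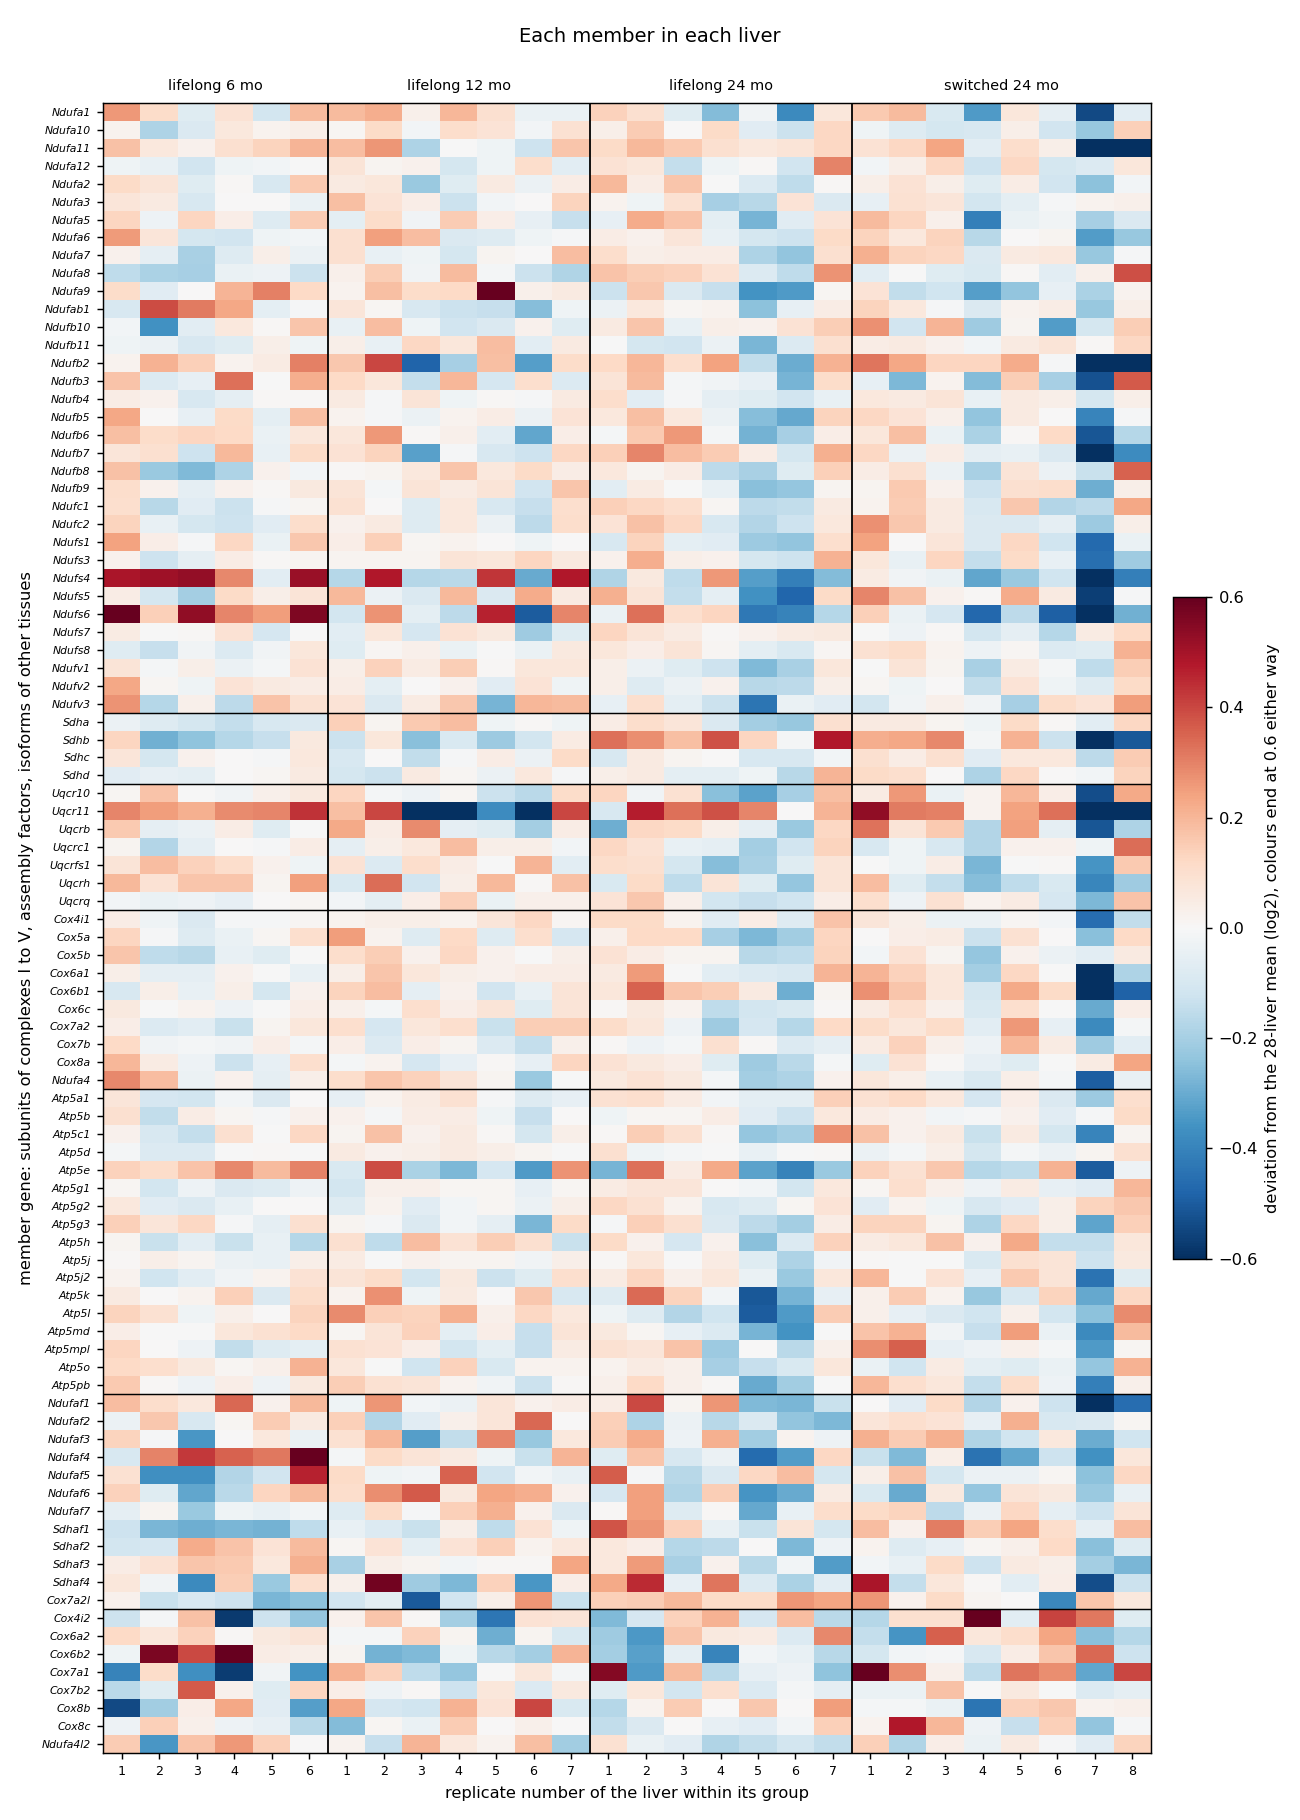
Deviation of each member (rows, ordered by class and complex) from its 28-liver mean in each liver (columns, by group and replicate number), in log2 units, red above and blue below, with colours ending at 0.6 either way. Columns 5 and 6 of the lifelong 24-month group and 4 and 7 of the switched group are blue over most subunit rows, with 6 to 11 of 72 subunits above the mean.

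Macrophage markers were high in the 4 low livers, and in others as well. Their mean deviation was 0.90 and 0.84 in 24-month livers 5 and 6 and 1.04 and 1.67 in switched livers 4 and 7. The score of 24-month liver 3 was 1.03, with 46 of 72 subunits above their mean. That of switched liver 1 was 0.79, below those of the 4 low livers, with 56 of 72 above. At 6 and 12 months the marker score lay between -0.68 and -0.05. Macrophage markers were not alone in this. In the 4 low livers, in the same order, B and plasma cell markers were at 0.74, 0.99, 1.06 and 0.96. T and NK cell markers were at 0.14, 0.07, 0.43 and 0.73, and stellate markers at 0.26, 0.14, 0.35 and 0.11. Cholangiocyte markers were at -0.01, -0.02, -0.04 and -0.09. In 24-month liver 7, with 60 of 72 subunits above, B and plasma cell markers were at 1.06 as well. Hepatocyte markers in the 4 low livers were at -0.12, -0.05, -0.02 and -0.03, within the range of the other old livers (-0.13 to 0.02). The part of other cell types in the low subunit values was not tested.

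**Figure D5:**
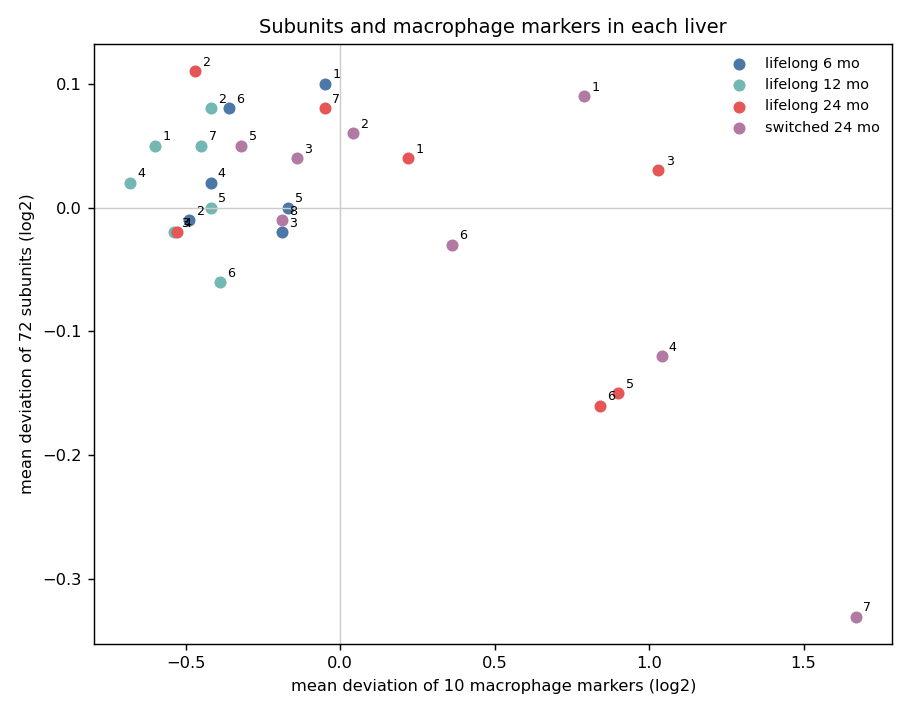
Mean deviation of the 72 subunits (vertical axis, log2) against that of the 10 Kupffer cell and macrophage markers (horizontal axis, log2), 1 point per liver with its replicate number, coloured by group. The 4 livers with subunit scores of -0.12 or lower have marker scores of 0.84 to 1.67, and 24-month liver 3 (1.03) and switched liver 1 (0.79) have subunit scores of 0.03 and 0.09.

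Of the genes that surround the chain, 0 to 2 in each list passed between 24 and 6 months, all of them lower. Of all genes, 6.23% passed (3.01% higher, 3.22% lower). With so few calls in a list, neither their share nor their direction is read as a trait of these genes. Of 17 electron carrier and ubiquinone genes, none rose and 2 fell: Coq10b, which binds ubiquinone, by -0.40 (SE 0.09, limma adjusted p = 0.0133), and Coq5, a methyltransferase of ubiquinone synthesis, by -0.26 (SE 0.07, 0.0245). Of 35 assembly factors outside the name prefixes, 2 fell: the complex III factor Ttc19 by -0.31 (0.018) and the complex IV factor Coa5 by -0.22 (0.02). Tfb2m, which starts transcription of mitochondrial DNA, was the only one of 16 biogenesis regulators to pass, at -0.24 (0.0261).

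In the citric acid cycle, Idh3a, the catalytic subunit of NAD-dependent isocitrate dehydrogenase, fell between 24 and 6 months by -0.40 (SE 0.08, limma adjusted p = 0.0081) and already between 12 and 6 months by -0.45 (0.0275). It was the only one of 15 to pass in each. Of all genes, 6.23% passed at 24 against 6 months and 0.829% at 12 against 6 months. None of 10 carrier and uncoupling genes passed. Of 18 fatty acid oxidation genes, Hadhb of the trifunctional protein was lower at 24 than at 6 months (-0.36, limma adjusted p = 0.0288). Hadhb and Ehhadh were lower at 12 than at 6 months (-0.46, 0.033, and -1.16, 0.0458). The 6-month livers were split in this list, with mean deviations of 0.66, 0.67 and 0.65 in livers 2, 3 and 4. Livers 1, 5 and 6 had -0.28, 0.01 and -0.24. Ehhadh had an SD of 0.73 at 6 months and 0.56 at 12 months. The cause of the split was not tested. Of 74 mitochondrial ribosomal protein genes, Mrps10 (-0.31, 0.0168) and Mrpl37 (-0.22, 0.0303) fell between 24 and 6 months, with a list median of -0.04. Medians of the other lists in that comparison were -0.03 for electron carriers, -0.02 for assembly factors, -0.06 for biogenesis regulators, -0.01 for the citric acid cycle, -0.00 for carriers and -0.15 for fatty acid oxidation.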

How the data were processed

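RNA from 28 livers, each of a separate mouse by its label, was hybridised to single-colour arrays. The authors made the expression values with RMA, per the submitters' processing notes; the deposited values are log2 and were used unchanged. The RMA version, and whether the arrays were normalised in one run, were not given in the sources used here. Precision is limited by the number of arrays.

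Of 35556 probe sets, 21218 name 1 gene, 1881 several and 12457 none in GEO's platform annotation. The brightest 1-gene probe set stood for a gene. Several were present for 25 members, and for 18 of these they gave the same sign between 24 and 6 months. A further 9 probe sets that members share with other genes were not used. All 92 members matched RefSeq by gene ID, and promoter sequences are RefSeq's (GRCm38.p6).

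The model (limma 3.58.1, R 4.3.3) was fitted to all arrays with group and array batch (G150, G151 and G152, read from array names; each holds all 4 groups) as fixed terms and empirical Bayes moderation. Tests were two-sided, adjusted by Benjamini-Hochberg over the 35556 probe sets, with 0.05 as the threshold. The script was tested on simulated data. Python 3.11.15, pandas 2.3.3, numpy 2.4.6 and matplotlib 3.10.9 were used for the summaries and figures.

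Genes were named by rule: members that passed (up to 20 per comparison), the 2 of smallest p in each complex, catalytic and redox subunits, tissue isoforms, and up to 4 passing genes of each other list; some that the rule names are left out of the text. Members and lists were chosen with earlier results of these data known. Livers were not paired by replicate number in the main fit. With group and batch removed, residuals of same-numbered livers correlated at 0.012 on average over 39 pairs, 4 of them over 0.1. Differently numbered livers correlated at -0.002 over 254 pairs, 26 of them over 0.1. Such averages cannot exclude a pairing of some livers. Of 78 genes with a cytosolic ribosomal protein prefix, 1 passed as higher and 5 as lower at 24 than at 6 months (median -0.08). Of all genes, 3.01% passed as higher and 3.22% as lower. Medians of other marker lists in that comparison were -0.07 (7 endothelial genes), 0.04 (8 stellate), -0.08 (5 cholangiocyte), 0.21 (7 T and NK cell), 0.41 (5 neutrophil), 0.02 (7 adipose), -0.04 (3 pancreas) and 0.19 (2 red blood cell), with no gene called.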

Additional observations from a re-analysis of the deposited data

Results flagged for a closer look

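Among the members given liver by liver and the scores of the complexes, 4 values stood far from the rest of their group by Dixon's test, which chance passes in about 1 of 20 groups. Ndufa9 in 12-month liver 5 was at 10.6, the next highest being 10.13. Cox7a2l in switched liver 6 was at 8.03, the next lowest being 8.42. In switched liver 7 the complex III score was -0.61, with the next lowest at -0.12, and the complex IV score was -0.37, with the next at -0.10. Over all members, 22 of 368 pairs of a member and a group had such a value, 6 of them in switched liver 7. The causes were not tested.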

How the results depend on the processing

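The medians by complex moved by less than the spread between livers under every alternative run. That spread, the pooled SD of a liver's score, was 0.087 (complex V) to 0.15 (complex III). It is larger than the medians themselves, so this does not show that they are stable. Leaving out 1 liver gave -0.04 to 0.03 for complex I between switched and lifelong livers. For complex II between 12 and 6 months it gave -0.04 to 0.02. Counts of members that passed moved too. Between 24 and 6 months, 4 passed, against 0 in batch G150 alone, 2 with the mean of all probe sets of a gene and 2 with only the groups compared, and against 6 with array weights, 6 with the dimmest 30% of probe sets left out, 6 without the 2 arrays whose names carry a suffix, 5 without the batch term and 5 with trend and robust moderation. The calls added in those 5 settings were the subunits Ndufs4, Atp5l and Atp5o; leaving out 1 liver gave 2 to 6. Over the 4 groups, 8 passed, against 1 in batch G150 alone; leaving out 1 liver gave 3 to 9. Between 12 and 6 months, 0 passed, against 1 (Cox6b2) with array weights and 0 to 2 without 1 liver, the 2 (Cox6b2 and Ndufaf4) without 6-month liver 1. Between 24 and 12 months, 0 passed, against 1 (Atp5l) without the arrays with a suffix and 0 to 1 without 1 liver. For switched against lifelong the count stayed at 0, also with switched livers 7 and 8 both left out, an alternative chosen after seeing the data. With the replicate number as a block, 3 passed between 24 and 6 months, Cox7a2l missing at an adjusted p of 0.0739, and 2 over the 4 groups (Ndufaf4 and Sdhaf1). Some of these fits had fewer livers or groups, and so fewer degrees of freedom. Why the counts moved was not tested. No called value changed sign. Calls over all probe sets also moved when 1 liver was left out. They ran from 831 to 2370 between 24 and 6 months and from 7 to 546 between 12 and 6 months. Between 24 and 12 months the range was 1 to 124, and for switched against lifelong 1 to 36. Over the 4 groups it was 1744 to 3411. Whether the members' counts moved apart from those of all probe sets was not tested.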

Other observations

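Small subunits of different complexes were low in 12-month livers 3, 4 and 6, as Ndufs4 and Ndufs6 were, without repeating the whole split: Atp5e was low in livers 1 and 5 too, and Ndufb2 was high in liver 1. These genes were chosen after their values were seen. Atp5e, the epsilon subunit of ATP synthase, lay between 9.47 and 9.66 at 6 months. At 12 months it had 9.75 and 9.63 in livers 2 and 7 and 9.27, 9.17, 9.09, 9.26 and 9.02 in livers 1, 3, 4, 5 and 6. Ndufb2, a membrane-arm subunit of complex I, lay between 7.59 and 7.87 at 6 months. At 12 months it had 7.73, 7.97, 7.75 and 7.68 in livers 1, 2, 5 and 7 and 7.09, 7.37 and 7.24 in livers 3, 4 and 6. The same gene was at 6.45 and 6.65 in switched livers 7 and 8, against 7.56 to 7.89 in the other switched livers. Livers 3, 4 and 6 at 12 months were thus low in Ndufs4, Ndufs6, Uqcr11, Atp5e and Ndufb2, while their scores over the 72 subunits were -0.02, 0.02 and -0.06. The cause of this pattern was not tested.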
